A study of Mus musculus with 203 samples.

Results

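Cigarette smoke was added to an established house dust mite (HDM) allergy model, and the lung parenchyma of these mice was compared with that of HDM mice that breathed air. The comparison holds the 20 libraries whose titles place them in the 11 week parenchyma groups HDM.CS (10 libraries) and HDM.AIR (10 libraries), out of 160 libraries at 11 weeks and 43 at 3 weeks in the series. All 20 came from female Balb/C mice with a labelled age of 18-20 weeks. Both groups received HDM extract intranasally on 5 days per week for 3 weeks and then 3 times per week from weeks 4 to 11. HDM.CS mice were also exposed to smoke 2 times per day on 5 days per week for 8 weeks, starting in week 4, whereas HDM.AIR mice breathed normal air. The parenchyma is the gas-exchanging tissue left after the airways are dissected away. The matching PBS.CS and PBS.AIR groups (10 libraries each) received phosphate buffered saline in place of HDM, and HDM.CS.DEX and HDM.AIR.DEX (10 each) received HDM with dexamethasone, a glucocorticoid, during week 11. The question the design poses is what smoke changes in a lung that is already allergic.

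As background, HDM drives an allergic response in which dendritic cells present allergen on MHC class II, T helper cells release type 2 and IL-17 cytokines, B cells mature into antibody-secreting plasma cells, and epithelium makes mucus. Smoke carries aryl hydrocarbons and oxidants. The former are sensed by the aryl hydrocarbon receptor (AhR), which switches on cytochrome P450 enzymes, and the latter by NRF2, which switches on glutathione and antioxidant enzymes. Macrophages laden with lipid and secreting the elastase MMP12 are the best known cellular mark of smoke in the mouse lung.

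The core promoters of 4 genes of the smoke response are shown first, because the AhR binds the letters GCGTG. Each run is the 150 bases before the RefSeq transcription start on the gene's own strand (GRCm38.p6), with GCGTG, or CACGC where the motif lies on the other strand, in capitals. The windows are chr9:57697463-57697612 (plus strand) for Cyp1a1, chr17:79715062-79715211 (minus) for Cyp1b1, chr13:74292332-74292481 (minus) for Ahrr and chr8:107403206-107403355 (minus) for Nqo1.
Cyp1a1: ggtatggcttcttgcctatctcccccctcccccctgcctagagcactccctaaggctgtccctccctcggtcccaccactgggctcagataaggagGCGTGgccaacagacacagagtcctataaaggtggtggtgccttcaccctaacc
Cyp1b1: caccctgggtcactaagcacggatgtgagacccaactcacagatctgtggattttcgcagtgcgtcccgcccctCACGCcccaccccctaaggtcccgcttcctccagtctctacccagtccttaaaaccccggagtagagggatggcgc
Ahrr: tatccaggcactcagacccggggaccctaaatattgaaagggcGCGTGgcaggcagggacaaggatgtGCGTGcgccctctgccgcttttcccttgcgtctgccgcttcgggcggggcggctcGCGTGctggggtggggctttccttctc
Nqo1: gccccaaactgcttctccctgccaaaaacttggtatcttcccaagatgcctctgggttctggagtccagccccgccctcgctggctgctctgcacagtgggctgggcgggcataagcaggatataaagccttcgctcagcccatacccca
Cyp1a1 and Cyp1b1 held 1 match each, Ahrr 3, and Nqo1 0. The match is common: in windows of 300 bases around the start (250 before, 50 after), read on both strands, 48.3% of the 12316 tested genes with a RefSeq promoter held GCGTG, against 31.7% of the genes called higher with smoke and 29.1% of those called lower. The antioxidant response core TGACNNNGC was in 14.6% of all promoters, 10.6% of those of genes called higher and 13.1% of those called lower. GAGGAAG, the purine-rich letters bound by SPI1, were in 13.5%, 13% and 13.8%. The motifs were searched one by one on both strands, and their matches may overlap each other.

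Depth was even between the groups, with 23795485 to 32942679 counts per library in HDM.CS and 24280497 to 33472028 in HDM.AIR. The tissue label held: Sftpc, the surfactant protein of alveolar type II cells, was at 8492 to 12620 CPM (counts scaled to equal library size by the TMM method) in HDM.CS and 7431 to 13380 CPM in HDM.AIR. One HDM.AIR library, X70, carried skeletal muscle RNA, with 6 muscle genes summing to 2516 CPM against 1.87 to 26.6 CPM in the other 19 libraries. The 6 genes were picked after X70 had been seen to stand apart. Without X70, X50 and X130, the 3 HDM.AIR libraries that stood nearest to HDM.CS or apart from their group in the principal component analysis, 226 genes were called higher and 639 lower, where the full set gave 743 called genes, 571 of them lower. Labels do not say whether each library is a separate mouse, so p-values measure the spread between libraries. In such bulk tissue, fewer cells of a type and less RNA per cell cannot be told apart.

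Smoke lowered more genes than it raised in HDM mice. Of 17226 genes tested with limma-voom across all 80 parenchyma libraries at 11 weeks, 743 were called, 571 of them lower in HDM.CS (3.31%) and the rest higher (0.998%), where a call needs a Benjamini-Hochberg adjusted p under 0.05 and a log2 fold change (log2FC) of at least 1 or at most -1. At the adjusted p alone, 2442 genes (14.2%) rose and 2621 (15.2%) fell, and the median log2FC of all genes was 0.005. All 10 HDM.CS libraries lay above all 10 HDM.AIR libraries in 71 genes (0.412%) and below them in 238 (1.38%), and of the called genes this held for 15.7% of those higher and 19.6% of those lower. Of the genes called lower 351 were protein coding, and most of the others were immunoglobulin variable segments. The median size of the log2FC was 1.46 among the genes called lower and 1.24 among those called higher.

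On the first principal component of the 20 libraries (45.5% of the variance of the 500 most variable genes), HDM.CS libraries scored 17.9 ± 8.30 and HDM.AIR libraries -17.9 ± 13.2 (SD, n = 10). The difference of 35.9 had a 2-sided permutation p of 6e-05 over 100000 resamples, and every HDM.CS library scored above every HDM.AIR library. The second component (9.47%) did not separate the groups at this test (permutation p = 0.27), and its highest score, 33.6, belonged to X70.

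**Figure D1:**
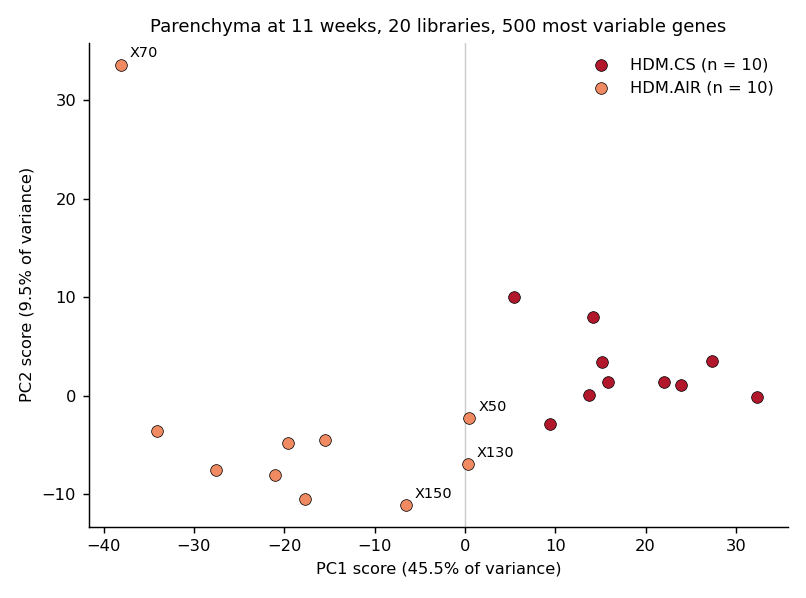
Scores of the 20 libraries on the first (45.5% of the variance) and second (9.47%) principal components of log2 CPM of the 500 most variable genes, coloured by group. HDM.CS libraries all lie to the right of HDM.AIR libraries, and X70 stands alone at the top with a second score of 33.6.

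The AhR programme rose with smoke on top of HDM. Of 10 tested genes of an AhR list, 6 passed the adjusted p upwards and 1 downwards, with a median log2FC of 0.57. Among all genes tested 14.2% rose and 15.2% fell at the adjusted p. Cyp1a1 (ENSMUSG00000032315.5, chr9:57687928-57703824, GRCm38), a cytochrome P450 that oxidizes polycyclic aromatic hydrocarbons and the textbook AhR target, was at 16.9 to 294 CPM in HDM.CS (median 73.9) and at 0.696 to 9.13 CPM in HDM.AIR (median 1.45). Its groups did not overlap, and its log2FC of 5.43 ± 1.02 (SE, adjusted p = 1.94e-05) was the highest of the list, although HDM.CS libraries spread widely among themselves. Ahrr, the receptor's own repressor, was at 2.21 to 3.83 CPM (median 2.98) against 0.29 to 1.74 CPM (median 0.78), again with no overlap (log2FC 1.95 ± 0.21, adjusted p = 2.35e-11). Nqo1, a quinone reductase under both AhR and NRF2, was at 5.97 to 34.1 CPM (median 17.1) against 2.44 to 3.80 CPM (median 3.47), a log2FC of 2.30 ± 0.35 (adjusted p = 4.23e-07). Aldh3a1, which clears aldehydes, and the glucuronosyltransferase Ugt1a6a rose without overlap too, by 1.26 and 1.10 on the log2 scale. Cyp1b1 rose less (log2FC 0.89 ± 0.13, adjusted p = 2.4e-07), from a median of 25.1 CPM to 46.4 CPM with groups that overlapped. Tiparp rose by 0.25, and the actin-severing protein gene Scin was the member that fell, by 1.30. The receptor Ahr itself and its partner Arnt did not pass, at 0.17 and 0.07.

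PBS mice, which share no library with this comparison, were set beside it, and the smoke effect on Cyp1b1 differed. Cyp1b1 rose by 2.42 in PBS.CS over PBS.AIR, and the difference between the smoke effects in HDM and PBS mice was -1.53 ± 0.22 (adjusted p = 2.87e-08). In air alone its median was 6.40 CPM in PBS mice and 25.1 CPM in HDM mice, so that both smoke groups came to lie close together, at 41.8 and 46.4 CPM. For Cyp1a1, Ahrr, Nqo1 and Aldh3a1 the difference between the smoke effects did not pass (adjusted p = 0.0851, 0.252, 0.599 and 0.95). In air Cyp1a1 was at 6.43 to 14.4 CPM in PBS.AIR and 0.696 to 9.13 CPM in HDM.AIR. With smoke it was at 19.7 to 279 CPM in PBS.CS and 16.9 to 294 CPM in HDM.CS. Under dexamethasone the Cyp1a1 medians were 27 CPM in HDM.CS.DEX and 12.7 CPM in HDM.AIR.DEX. That log2FC of 0.97 did not pass (adjusted p = 0.314), and it differed from the one without dexamethasone by -4.46 (adjusted p = 0.0125).

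Of 34 NRF2 target genes tested, 9 rose and 4 fell, with a median log2FC of 0.05. Over all genes 14.2% rose and 15.2% fell at the adjusted p, so the 4 falls were no more than that share. The risers were mostly glutathione transferases and other xenobiotic enzymes. Gstm1 was at 289 to 423 CPM in HDM.CS (median 338) and 124.8 to 218 CPM in HDM.AIR (median 158.8), with no overlap and a log2FC of 1.06 ± 0.10 (adjusted p = 1.41e-12). Aldehyde oxidase Aox1 (0.79) also rose without overlap, and Gstm2 (0.57) with it. Gsta1 passed (1.28, adjusted p = 0.0206) at levels of at most 0.709 CPM, but not without the HDM.AIR library X70 (0.97). The 4 that fell were antioxidant genes. Heme oxygenase Hmox1 had a median of 100.5 CPM against 210.1 CPM (log2FC -0.96 ± 0.21, adjusted p = 0.000286), the cystine transporter Slc7a11 61.5 against 110.6 CPM (-0.73), peroxiredoxin Prdx1 943 against 1344 CPM (-0.48) and sulfiredoxin Srxn1 42 against 53.7 CPM (-0.26). All 4 had overlapping groups. Srxn1 no longer passed without X10, X30, X70, X98, X110, X118, X150 or X178 (-0.21 to -0.25).

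In PBS mice the same antioxidant genes rose with smoke, and the difference between the smoke effects passed for each. Slc7a11 rose by 2.70 in PBS mice, a difference of -3.43 ± 0.34 (adjusted p = 1.39e-13), and Hmox1 by 0.84, a difference of -1.8 ± 0.30 (adjusted p = 9.45e-07). Prdx1 and Srxn1 rose by 0.48 and 0.71. Gclc, the rate-limiting enzyme of glutathione synthesis, rose by 0.70 in PBS mice and stood at 0.05 in HDM mice (adjusted p = 0.774). Gstm1 went the other way, with 0.25 in PBS mice and a difference of 0.81 ± 0.15 (adjusted p = 5.47e-06).

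**Figure D2:**
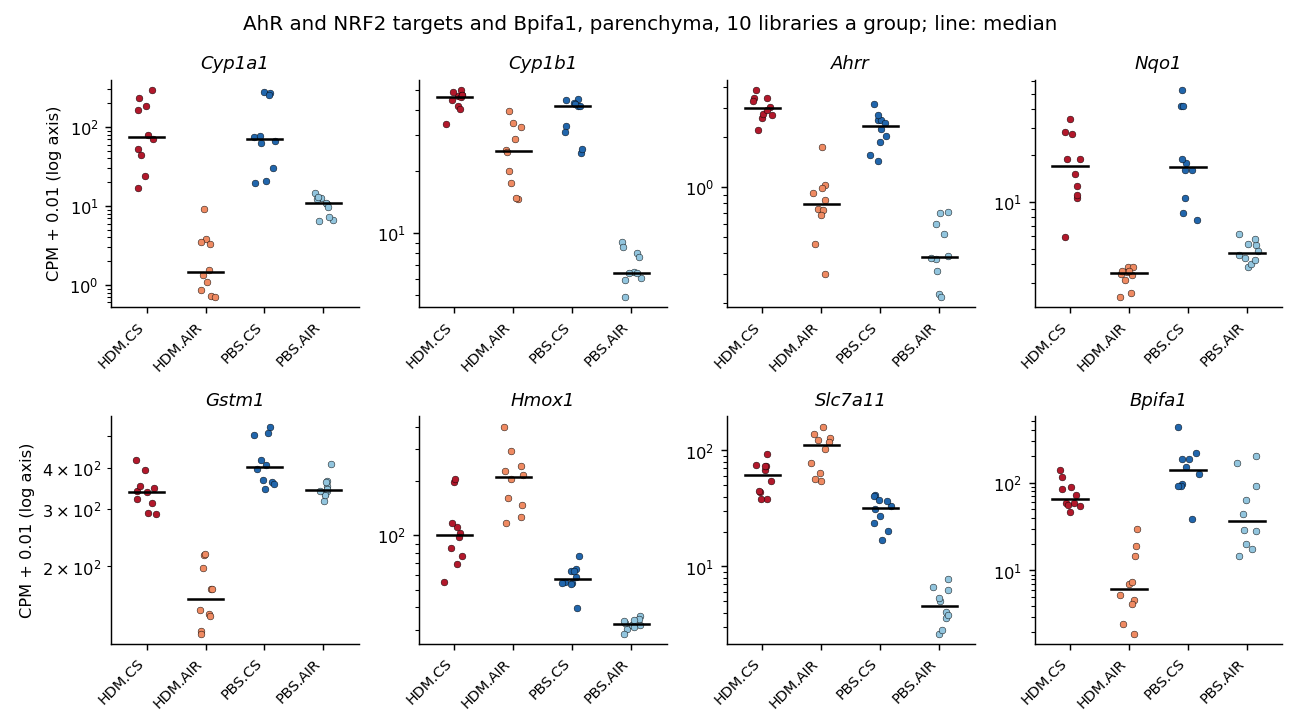
Level of 8 genes, 7 of xenobiotic and oxidant defence and the airway gene Bpifa1, in each library (CPM + 0.01, log axis) in 4 groups, PBS.AIR, PBS.CS, HDM.AIR and HDM.CS, with the median as a line. Cyp1a1, Ahrr, Nqo1, Gstm1 and Bpifa1 are higher in every HDM.CS library than in any HDM.AIR library, whereas Hmox1 and Slc7a11 have lower medians in HDM.CS than in HDM.AIR and higher ones in PBS.CS than in PBS.AIR.

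Club cell genes rose as a group. Club cells are the secretory, detoxifying cells of the small airways, and 15 of their 19 tested genes rose and none fell (median log2FC 0.69). Bpifa1 (chr2:154142880-154149219), a secreted antimicrobial protein of airway epithelium, was at 46.8 to 139.3 CPM in HDM.CS (median 65.3) and 1.91 to 29.6 CPM in HDM.AIR (median 6.16). The groups did not overlap, and the log2FC was 3.41 ± 0.48 (adjusted p = 4.81e-08). The difference from the smoke effect in PBS mice, where Bpifa1 rose by 1.58, was 1.83 ± 0.60 (adjusted p = 0.0099). Scgb1a1, the main club cell secretory protein, rose by 0.57 ± 0.15 from a median of 13200 CPM to 19440 CPM with overlapping groups. Cyp2f2, a P450 of club cells, was at 738 to 1186 CPM against 442 to 715 CPM with no overlap (0.65 ± 0.10), and in PBS mice its log2FC was -0.00. Scgb3a2 rose by 0.98, and Scgb3a1 passed at 0.84 (adjusted p = 0.031). Scgb3a1 was highest of all 20 libraries in the HDM.AIR library X90, at 2933 CPM, and did not pass with edgeR (0.30) or DESeq2 (0.28), or without X10, X30, X50, X98, X130 or X190 (0.71 to 0.81). Krt15, a keratin of basal-like cells placed in the same list, rose by 3.19 ± 0.54 at low levels (at most 1.65 CPM), but did not pass in a fit that adds the airway libraries. Of 20 ciliated cell genes 3 rose and none fell (median 0.25), near the 14.2% of all genes that rose at the adjusted p. Of 9 basal and squamous genes 1 rose and 3 fell, where 15.2% of all genes fell. How much small airway tissue each dissected piece held was not measured.

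Among 19 goblet cell genes 4 fell and 1 rose, where 15.2% of all genes tested fell and 14.2% rose at the adjusted p. Clca1, a secreted mucus-processing protein that marks allergic goblet cells, was at 1.32 to 104.7 CPM in HDM.CS (median 11.4) and 18.8 to 466 CPM in HDM.AIR (median 108.6), so the groups overlapped in spite of a log2FC of -2.67 ± 0.48 (adjusted p = 9.47e-06). The trefoil peptide Tff2 fell by 1.08 and the fucosyltransferase Fut2 by 0.98. The mucins themselves did not pass, with Muc5b at 0.24 (adjusted p = 0.41) and Muc5ac at -0.55 (adjusted p = 0.0566). Muc5ac passed without X10, X70, X78, X110, X130, X178 or X190 (-0.59 to -0.73). In PBS mice 10 of the 19 rose with smoke and 1 fell, and Fut2 rose by 2.5 there, a difference of -3.48 ± 0.38 (adjusted p = 1.07e-11).

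Type 2 cytokine and alarmin genes showed 3 falls and no rise among 17 tested, namely Il4 (log2FC -1.31, at most 0.96 CPM), the IL-25 receptor Il17rb (-0.85) and the IL-33 receptor Il1rl1 (-0.48, not passing when fitted on the 20 libraries alone). That share was near the 15.2% of all genes that fell. Il5 and Il13 were too low to be tested. Of 12 eosinophil genes 5 fell and none rose. Prg2, the eosinophil major basic protein, had medians of 0.839 and 2.19 CPM (log2FC -1.53 ± 0.25, adjusted p = 2.02e-06), and the eotaxin Ccl11 did not pass (-0.22, adjusted p = 0.607). Mast cell proteases fell together: Mcpt2 by 1.55, Cma1 by 1.49 and Mcpt1 by 1.33. Cma1 was at 0.339 to 0.876 CPM in HDM.CS and 1.10 to 2.21 CPM in HDM.AIR, with no overlap. Of the 14 mast cell and basophil genes tested 6 fell, while Kit and Gata2, which other lung cells also express, rose by 0.78 and 0.81. Cma1 also fell in PBS mice, by 1.54, and the smoke effects were not found to differ (adjusted p = 0.927, interval of the difference -0.65 to 0.74).

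Genes of B cells and antibody secretion fell together. None of 18 B cell genes rose and 16 fell (median log2FC -0.85), and none of 20 plasma cell and immunoglobulin constant genes rose and 17 fell (median -1.40). At the adjusted p 15.2% of all genes fell. Of the immunoglobulin variable segments tested, all but 17 (90.8%) were called lower and 0 higher (median -1.99). Over all genes 3.31% were called lower, but the segments share reads and are not separate tests. The count filter asked for only 9 libraries, so segments could enter the test through HDM groups alone. The share of segments called lower therefore cannot be weighed against the share over all genes. Counted together, the segments made up 1241 to 4259 CPM in HDM.CS (median 2921) and 3764 to 20960 CPM in HDM.AIR (median 9765). Their medians in mice without HDM were 149.9 CPM with smoke and 90.1 CPM in air, so the antibody signal of HDM.CS mice stayed well above that of PBS mice. Segments resemble each other closely and the quantification shares reads among them, so single segments are not named.

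Constant region genes of each antibody class given here fell, and Ighe (IgE) did not pass the count filter and was not tested. Ighm (IgM) was at 224 to 1027 CPM in HDM.CS (median 472) and 1033 to 2086 CPM in HDM.AIR (median 1331), with no overlap (log2FC -1.49 ± 0.26, adjusted p = 4.91e-06). Igkc, the kappa light chain, was at 714 to 2484 CPM against 2537 to 13300 CPM, also with no overlap (-1.75 ± 0.35). Igha (IgA) fell by 1.94, and Ighg2b by 2.18, with overlapping groups. Ighg1, the class driven by IL-4 in mice, fell by 1.70 ± 0.58 (adjusted p = 0.0199) from a median of 9683 CPM to 3201 CPM, and did not pass with library quality weights (-1.5). Jchain, which joins IgA and IgM units, fell by 1.76. The endoplasmic reticulum proteins of plasma cells fell alongside, Mzb1 by 1.66 ± 0.22 (adjusted p = 7.02e-09, medians 55.1 and 158.9 CPM) and Derl3 by 1.44. Sdc1, a plasma cell surface marker that epithelium also expresses, did not pass (-0.22, adjusted p = 0.0912, against -0.25 and a pass with DESeq2).

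Rgs13 and Nuggc, known from germinal centre B cells, were among the genes named for a fall without overlap. Rgs13, a signalling regulator of germinal centre B cells, was at 0.112 to 0.837 CPM in HDM.CS (median 0.532) and 1.91 to 7.18 CPM in HDM.AIR (median 3.24). The groups were far apart (log2FC -2.85 ± 0.28, adjusted p = 2.04e-12). The germinal centre GTPase gene Nuggc fell by 2.16, also without overlap. Mature B cell genes fell by smaller amounts, Ms4a1 (CD20) by 1.14 and Cd79a by 1.16, and the B cell transcription factors Spib and Pou2af1 by 1.18 and 1.32. For Ms4a1 the smoke effect was not found to differ from that in PBS mice (adjusted p = 0.105), whereas for Rgs13 it differed by -3.31 ± 0.64 (adjusted p = 1.58e-05).

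Genes that organize lymphoid tissue fell as well, 11 of 16 with none rising (median -0.81), where 15.2% of all genes fell at the adjusted p. Glycam1, the L-selectin ligand of high endothelial venules, was at 0.149 to 0.565 CPM against 1.11 to 5.21 CPM (log2FC -2.78 ± 0.36), although it did not pass in a fit that adds the airway libraries. Ccl19, which draws T cells and dendritic cells into lymphoid tissue, was at 4.05 to 9 CPM in HDM.CS (median 6.34) and 10 to 34.3 CPM in HDM.AIR (median 20). That fall of 1.58 ± 0.22 (adjusted p = 5.1e-08) stood beside a rise of 1.81 in PBS mice, a difference of -3.39 ± 0.62 (adjusted p = 5.27e-06).

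**Figure D3:**
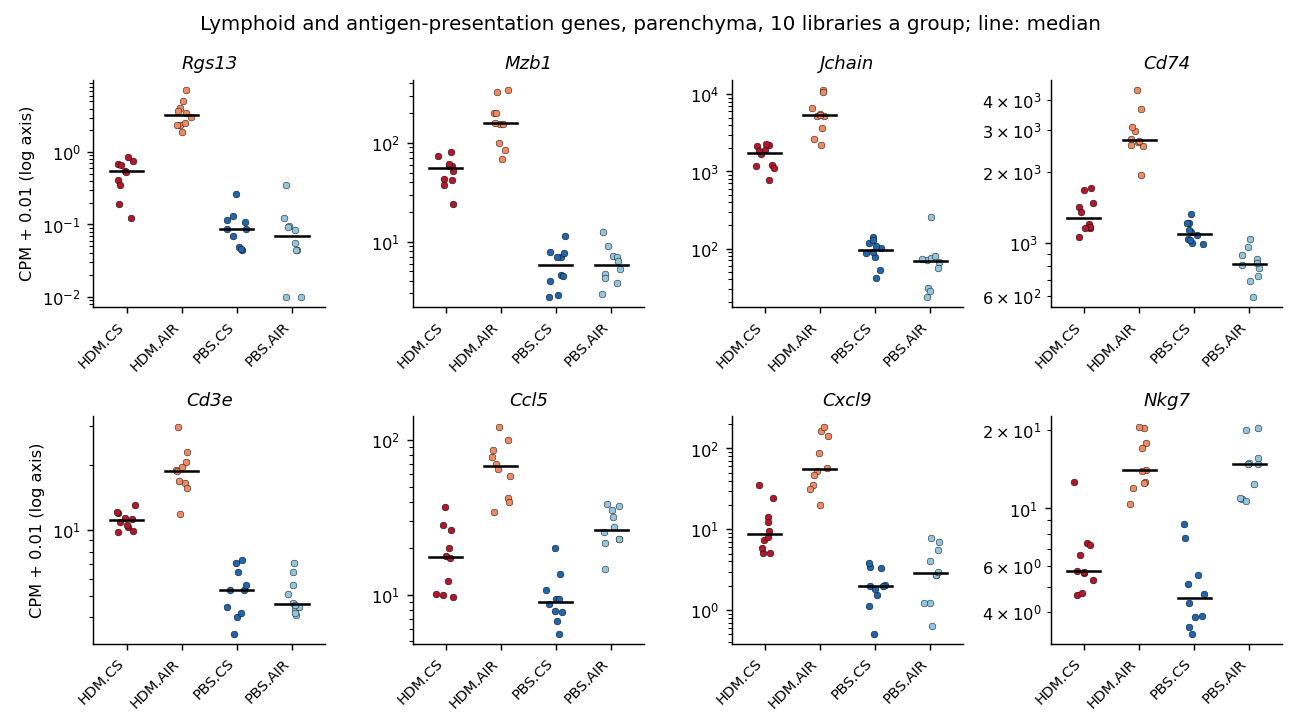
Level of 8 lymphocyte and antigen presentation genes in each library (CPM + 0.01, log axis) in PBS.AIR, PBS.CS, HDM.AIR and HDM.CS, with the median as a line. HDM.CS lies between HDM.AIR and the PBS groups for Rgs13, Mzb1 and Jchain, while Nkg7 and Ccl5 are lower with smoke in both HDM and PBS mice.

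T cell genes fell without exception among those tested, with 27 of 27 passing downwards (median log2FC -0.75), and the fall was moderate in size. The share of all genes that fell at the adjusted p was 15.2%. Cd3e was at 9.86 to 13 CPM in HDM.CS (median 11.1) and 11.9 to 29.8 CPM in HDM.AIR (median 18.7), with overlapping groups and a log2FC of -0.75 ± 0.13 (adjusted p = 2.87e-06). Cd3d and Cd3g fell by 0.75 and 0.76. Of the receptors of activated T cells, Lag3 fell by 1.29 without overlap and Pdcd1 (PD-1) by 1.14. In PBS mice the median over the 27 genes was 0.04, with 7 rising and 3 falling, and the difference between the smoke effects passed downwards in 19. With dexamethasone 21 of the 27 fell in HDM.CS.DEX (median -0.85).

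Cytotoxic lymphocyte genes fell in both HDM and PBS mice. In HDM mice 14 of 15 fell (median log2FC -1.26), and in PBS mice 13 of 15 fell (median -1.51), with 1 of 15 passing the test of a difference. Among all 17226 genes 2621 fell in HDM mice and 3792 in PBS mice, and 41.9% passed that test. Ccl5, a chemokine stored by cytotoxic T and NK cells, was at 9.72 to 37.1 CPM in HDM.CS (median 17.5) and 34.1 to 121.9 CPM in HDM.AIR (median 67.7). It fell by 1.92 ± 0.24 (adjusted p = 1.79e-09) in HDM mice and by 1.51 in PBS mice. Nkg7, a granule protein, fell by 1.24 and 1.55 in turn, and the interval of the difference between those effects was -0.28 to 0.90. Granzyme genes Gzmk, Gzma and Gzmb fell by 1.69, 1.15 and 0.93 in HDM mice.

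The interferon gamma axis was lower too, with 14 of 18 genes falling and 1 rising (median log2FC -1.11). Among all genes 15.2% fell and 14.2% rose at the adjusted p. Cxcl9, the interferon-induced ligand of CXCR3, was at 5.12 to 35.2 CPM in HDM.CS (median 8.72) and 20 to 185.5 CPM in HDM.AIR (median 55), a log2FC of -2.65 ± 0.40 (adjusted p = 2.81e-07) with some overlap. Its receptor Cxcr3 fell without overlap, from a median of 6.71 CPM to 3.07 CPM (-1.11 ± 0.14). Inducible nitric oxide synthase Nos2 fell by 2.37 ± 0.26, and under dexamethasone its log2FC was -0.15, a difference of 2.22 (adjusted p = 0.000508). The nucleic acid sensor gene Zbp1 fell by 1.57 and Ifi44 by 1.2. Over the wider interferon response list 18 of 24 fell and 1 rose (median -0.69). The library X38 had the highest Nos2 of the HDM.CS group.

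Antigen presentation fell with them. Of 22 MHC class II and dendritic cell genes 17 fell and none rose (median log2FC -0.88), where 15.2% of all genes fell at the adjusted p. Cd74, the invariant chain of MHC class II, was at 1060 to 1707 CPM in HDM.CS (median 1280) and 1941 to 4409 CPM in HDM.AIR (median 2713). The groups did not overlap (-1.11 ± 0.15, adjusted p = 2.35e-08). The class II chains H2-Aa, H2-Ab1 and H2-Eb1 fell by 1.00, 1.08 and 1.11. Xcr1 and Itgae, markers of cross-presenting dendritic cells, fell by 1.39 and 1.05, both without overlap. In PBS mice Cd74 rose by 0.46, and the difference between the smoke effects was -1.57 ± 0.21 (adjusted p = 2.77e-09).

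Several genes named for the size or the p of their fall belong to none of these lists. H2-M2 (chr17:37480851-37483552), a nonclassical MHC class I gene, was at 5.69 to 40.9 CPM in HDM.CS (median 13.6) and 50.2 to 313 CPM in HDM.AIR, with no overlap. Its log2FC of -3.09 ± 0.25 had the smallest adjusted p of the genes described here, 2.88e-15. Thbs4, a matrix thrombospondin, fell by 2.99, and Coch, which encodes the extracellular protein cochlin, by 2.97. The lipoxygenase gene Alox12e fell by 2.18, Timd2 by 2.30, the orphan receptor gene Gpr141b by 1.69, Slamf7 by 1.36, the prion-like gene Prnd by 1.58 and the nuclear body gene Sp140 by 0.76. Art2a-ps fell by 2.13, but it is a pseudogene with near-identical copies and its reads may be shared with them.

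Macrophage genes answered smoke differently in HDM and PBS mice. In PBS mice 26 of 31 genes of lipid-handling and lysosomal macrophages rose with smoke (median log2FC 1.55), against 3449 of all 17226 genes. In HDM mice 7 rose and 5 fell (median -0.09), where 14.2% of all genes rose and 15.2% fell at the adjusted p. The difference passed downwards in 23 of the 31, and in 3571 of all 17226 genes. Mmp12 (chr9:7344381-7369499), macrophage elastase, was at 504 to 1448 CPM in HDM.CS (median 996) and 1202 to 3935 CPM in HDM.AIR (median 2284). It therefore fell with smoke in HDM mice (log2FC -1.26 ± 0.29, adjusted p = 0.000514, overlapping groups). In PBS mice its medians were 304 CPM with smoke and 33.6 CPM in air, a rise of 2.89. The smoke effects differed by -4.15 ± 0.38 (adjusted p = 1.31e-14). With dexamethasone Mmp12 fell by 1.13 in HDM mice, and that effect was not found to differ from the one without (adjusted p = 0.876).

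Acod1, the enzyme that makes itaconate in activated macrophages, showed the widest difference between the smoke effects among the genes named. It was at 3.11 to 44.6 CPM in HDM.CS (median 12) and 23.3 to 184.3 CPM in HDM.AIR (median 69.4), a log2FC of -2.73 ± 0.33 (adjusted p = 8.69e-10). In PBS mice it rose by 2.11, a difference of -4.84 ± 0.67 (adjusted p = 1.2e-08). Dcstamp, a fusion receptor of multinucleating macrophages, fell by 2.69 and rose by 1.82 in PBS mice. Slpi, an inhibitor of neutrophil elastase made by epithelium and macrophages, was at 148.7 to 646 CPM against 648 to 3374 CPM with no overlap (-2.11 ± 0.23), and rose by 1.08 in PBS mice. Ly6i and the amino acid transporter Slc7a5 fell by 1.49 and 1.04 and rose by 2.60 and 1.03 in PBS mice. Ccl8 and Arg1, both linked to alternatively activated macrophages, fell by 1.64 each without a rise passing in PBS mice (0.21 and -1.15).

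Some macrophage genes did rise. Marco, a scavenger receptor of alveolar macrophages, had medians of 46 CPM in HDM.CS and 12.5 CPM in HDM.AIR (log2FC 1.41 ± 0.24, adjusted p = 3.62e-06, overlapping groups) and rose by 2.86 in PBS mice. Gdf15, a stress cytokine, rose by 1.41. Gpnmb, a lysosomal glycoprotein of lipid-laden macrophages, passed narrowly at 0.53 (adjusted p = 0.0437) and rose by 3.24 in PBS mice. It did not pass with edgeR (0.43) or DESeq2 (0.41), nor when any single library but X50, X70, X98, X150, X170 or X178 was left out (0.41 to 0.54). Of 21 alveolar macrophage genes 8 rose and 3 fell, and of 20 interstitial macrophage and monocyte genes 3 rose and 10 fell. Of 18 alternatively activated macrophage genes 1 rose and 8 fell. At the adjusted p, 14.2% of all genes rose and 15.2% fell. Siglecf and C1qa did not pass (0.17 and -0.31, adjusted p = 0.417 and 0.0796), but C1qa did without X18 or X150 (-0.37 and -0.39). Of 21 C-type lectin and pattern receptor genes 2 rose and 10 fell, and of 20 complement genes 8 fell and none rose, among them C3 (-0.43), which rose by 1.68 in PBS mice.

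Spi1, the myeloid transcription factor PU.1, and 4 genes the study followed with it were read as a set of 5. Spi1 was at 36.2 to 77.9 CPM in HDM.CS (median 63.5) and 52 to 113.9 CPM in HDM.AIR (median 73.8), and its log2FC of -0.30 did not pass (adjusted p = 0.0607). It passed with DESeq2 (-0.32) and without X18, X38, X78, X90, X170 or X190 (-0.33 to -0.36). The IL-1 receptor antagonist Il1rn fell by 0.72, the platelet-activating factor receptor Ptafr by 0.68, the integrin Itgax (CD11c) by 0.51, which did not pass once airway libraries were added to the fit, and the beta-glucan receptor Clec7a by 0.75. In PBS mice all 5 rose, Spi1 by 1.08 and Il1rn by 2.18. The difference between the smoke effects passed for all 5, from -1.38 for Spi1 to -2.89 for Il1rn, where it passed in 41.9% of all genes.

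**Figure D4:**
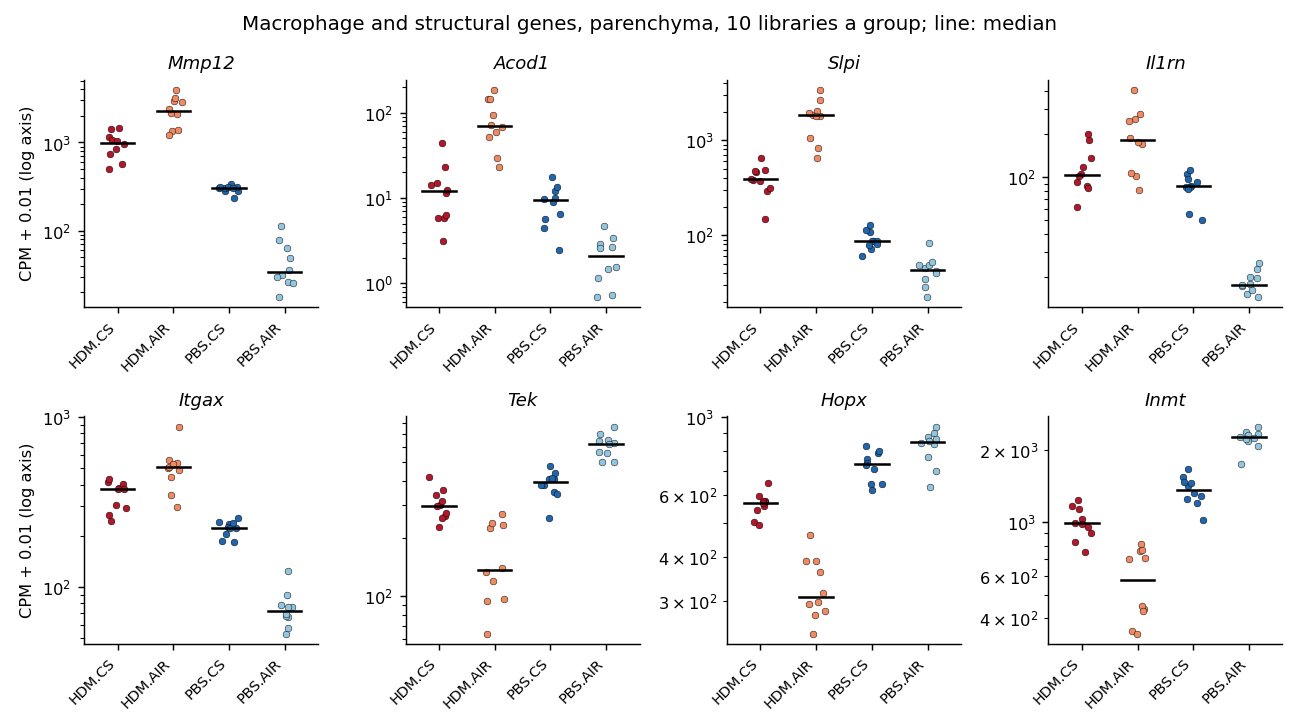
Level of 8 genes whose smoke effect differed between HDM and PBS mice, in each library (CPM + 0.01, log axis) of PBS.AIR, PBS.CS, HDM.AIR and HDM.CS, with the median as a line. Mmp12, Acod1, Slpi, Il1rn and Itgax have higher medians with smoke in PBS mice and lower ones in HDM mice, and Tek, Hopx and Inmt the reverse.

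Neutrophil genes were close to level, with 2 of 22 rising and 4 falling (median log2FC -0.19), against 18 rising in PBS mice. Over all genes 14.2% rose and 15.2% fell in HDM mice at the adjusted p. The alarmins S100a8 and S100a9 did not pass (-0.51 and -0.35), except for S100a8 without X170 (-0.67) and with edgeR (-0.61) or DESeq2 (-0.63), and Ly6g fell by 0.90 at levels of at most 1.96 CPM. Neutrophil chemokine and growth factor genes split, with 6 of 24 rising and 7 falling. Cxcl1 passed narrowly (0.67, adjusted p = 0.0366). It did not with edgeR (0.60) or DESeq2 (0.58), or without X18, X38, X58, X70, X90, X98, X138, X150, X170 or X190 (0.56 to 0.65). Cxcl5 (0.34) and the iron-binding protein Lcn2 (-0.20) did not pass. In PBS mice those 3 rose by 4.08, 4.79 and 3.68, and the difference between the smoke effects passed for each (-3.41, -4.46 and -3.88). Csf2 (GM-CSF) rose by 0.81, and Cxcr1 by 2.28 ± 0.42 from a median of 2.38 CPM to 16 CPM, although the highest HDM.AIR library reached 25.9 CPM.

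Of the 2 IL-17 cytokine genes given here, Il17f rose and Il17a did not pass, and the difference between them was not tested. Il17f (chr1:20777146-20790617) was at 5.45 to 15.8 CPM in HDM.CS (median 10.1) and 0.554 to 4.56 CPM in HDM.AIR (median 2.55), with no overlap and a log2FC of 2.20 ± 0.25 (adjusted p = 8.39e-11). Il17a, its neighbour in function, had medians of 15.3 and 17.9 CPM and did not pass (-0.09, adjusted p = 0.776). Il17f also rose under dexamethasone, by 1.60 (adjusted p = 0.00118). In PBS mice it was near 0, with a median of 0.0672 CPM with smoke.

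Alveolar type I and endothelial genes rose. Of 18 alveolar type I genes 16 rose and none fell (median log2FC 0.49), and of 29 endothelial genes 22 rose and none fell (median 0.66). The share of all genes that rose at the adjusted p was 14.2%. Hopx, an alveolar type I gene, was at 494 to 648 CPM in HDM.CS (median 570) and 243 to 460 CPM in HDM.AIR (median 308), with no overlap (0.79 ± 0.09, adjusted p = 1.34e-10). Ager (RAGE) rose by 0.40, but did not pass once airway libraries were added to the fit. Tek, the angiopoietin receptor of blood vessels, had medians of 296 and 136.8 CPM (1.03 ± 0.15, adjusted p = 1.38e-07, overlapping groups), and Cdh5, Kdr and Pecam1 rose by 0.66, 0.57 and 0.47. Lyve1, the hyaluronan receptor of lymphatic vessels, rose without overlap by 1.62. Other vessel genes that rose were Calcrl (1.03), Gpr182 (1.24) and Edil3 (1.33), and Rab6b rose by 1.01.

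These genes had been lower in HDM.AIR than in PBS.AIR, a comparison that shares its HDM.AIR libraries with the present one. For Tek the median was 623 CPM in PBS.AIR, 394 CPM in PBS.CS, 136.8 CPM in HDM.AIR and 296 CPM in HDM.CS. Smoke thus lowered Tek in PBS mice, by 0.68, and raised it in HDM mice, and the effects differed by 1.71 ± 0.22 (adjusted p = 2.22e-09). The difference passed upwards in 16 of the 18 alveolar type I genes and 22 of the 29 endothelial genes. The lung fibroblast genes Inmt and Tcf21 followed this pattern, rising by 0.85 and 0.84 in HDM mice and falling by 0.71 and 0.66 in PBS mice. The alveolar type II genes Sftpc and Sftpb did not pass (0.06 and 0.12). Of 23 genes of that cell 6 rose, where 14.2% of all genes rose at the adjusted p.

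Matrix and protease genes fell more often than genes at large, of which 14.2% rose and 15.2% fell at the adjusted p. Of 32 collagen and matrix genes 5 rose, near that share, and 11 fell. Of 23 matrix protease genes 2 rose and 12 fell, and of 21 fibroblast genes 7 rose and 5 fell. The fibrillar collagens Col3a1 and Col1a1 fell by 0.64 and 0.45. Col1a1 did not pass on the 20 libraries alone or without X10, X18, X110, X118, X130, X150 or X178 (-0.36 to -0.43). Timp1, the metalloprotease inhibitor, was at 12.6 to 46.6 CPM in HDM.CS (median 25.1) and 25.5 to 198.1 CPM in HDM.AIR (median 75.2), a log2FC of -1.42 ± 0.32 (adjusted p = 0.000317). Under dexamethasone it rose with smoke by 1.69 (medians 42.1 and 15.9 CPM), and the effects with and without dexamethasone differed by 3.10 (adjusted p = 7.47e-05). Smooth muscle genes rose in 6 of 17 and fell in 1, cardiac muscle genes rose in 2 of 13, and 1 of 13 adipose genes fell.

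Red blood cell genes moved with smoke and are given beside the vessel genes for that reason. Of 14 erythroid and platelet genes 7 rose, all of the red cell, and 1, the platelet chemokine Pf4, fell. Among all genes 14.2% rose and 15.2% fell at the adjusted p. The list summed to 5687 to 11970 CPM in HDM.CS and 1498 to 7392 CPM in HDM.AIR. Hba-a1, a haemoglobin chain with a near-identical copy, rose by 1.39 ± 0.37 (adjusted p = 0.0022), and Alas2, the first enzyme of red cell heme synthesis, by 1.34. The part of blood content in the vessel results was not tested.

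Proliferation genes fell in HDM mice, with 24 of 30 cell cycle genes passing downwards and none upwards (median log2FC -0.64). At the adjusted p 15.2% of all genes fell. Pclaf, a partner of the replication clamp, was at 6.33 to 12.1 CPM against 13.5 to 33 CPM (-1.15 ± 0.20, adjusted p = 5.94e-06) with no overlap, and the mitotic genes Aurkb and Kif11 fell by 0.94 and 0.87. In PBS mice 20 of the 30 rose with smoke and none fell (median 0.76), and the difference passed downwards in all 30. In HDM mice given dexamethasone 9 of the 30 rose and none fell (median 0.69).

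Clock genes varied widely inside the groups, and Nr1d1 did so along the library codes. In HDM.CS Nr1d1 was at 32.3 to 79.1 CPM in X18 to X118 and 9.43 to 14.1 CPM in X138 to X198. In HDM.AIR it was at 3.45 to 9.73 CPM in X10 to X130 and 13.8 to 18.4 CPM in X150 to X190. Of 18 tested, where 15.2% of all genes fell, 2 fell. Cry1, a clock repressor and one of these, was at 11.7 to 29.1 CPM against 30.2 to 43.2 CPM with no overlap, and its fall of 0.82 (adjusted p = 0.0234) did not pass without X58 (-0.73). In PBS mice Cry1 fell by 1.15. Nr1d1, another repressor of the clock, had medians of 36.8 and 6.67 CPM, but its log2FC of 1.93 ± 0.81 did not pass (adjusted p = 0.0624). It passed with edgeR (2.04) or DESeq2 (2.02) and without X138 or X158 (2.09 and 2.11). Per2 did not pass either (-0.87, adjusted p = 0.0554), but did without X90, X98, X110, X118, X130 or X158 (-0.95 to -0.99). Thra, a thyroid hormone receptor gene that rose without overlap by 0.67 (adjusted p = 1.33e-11), overlaps Nr1d1 on the opposite strand of chromosome 11, and whether counting used strand is not given in the sources used here, so their reads may be mixed. The hour of tissue collection is not given either, so its part in the difference of clock genes between the groups could not be tested.

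Small metabolic genes completed the list of the largest rises. Otc, a urea cycle enzyme, was at 0.404 to 0.872 CPM against 0 to 0.389 CPM (log2FC 2.41 ± 0.37, adjusted p = 4.4e-07). The lipase gene Lipf was at 3.11 to 7.38 CPM against 0.244 to 1.99 CPM and rose by 2.34. Nox1, an oxidant-producing NADPH oxidase, rose by 2.14, and the thioesterase gene Them5 by 2.25 at levels of at most 0.622 CPM. Groups did not overlap for any of the 4. Glucocorticoid targets rose in 3 of 16 and fell in none, and cholesterol and fatty acid synthesis genes fell in 1 of 23. Alveolar transitional and injury genes rose in 1 of 21 and fell in 5. Acute phase genes rose in 2 of 18 and fell in 3, and monocyte chemokine genes rose in 1 of 16 and fell in 7. The shares over all genes were 14.2% rising and 15.2% falling at the adjusted p.

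Over all genes, smoke in PBS mice called 747 genes higher (4.34%) and fewer lower (1.17%), against 0.998% and 3.31% in HDM mice. At the adjusted p alone 3449 rose and 3792 fell in PBS mice, against 2442 and 2621 in HDM mice, so falls outnumbered rises in both. Of the genes called higher in HDM mice, 42 (24.4%) were also called higher in PBS mice and 3 were called lower. Of the 571 called lower, 48 (8.41%) were called lower in PBS mice and 40 (7.01%) were called higher. The smoke effect differed between HDM and PBS mice in 7210 genes (41.9%) at an adjusted p under 0.05, 3639 with a higher and 3571 with a lower effect in HDM mice. For 43 genes that were called in opposite directions the difference itself passed, 40 of them lower in HDM and higher in PBS mice.

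The genes called with smoke in HDM mice were also looked at for the effect of HDM itself. In libraries that this comparison does not use, HDM.AIR.DEX against PBS.AIR.DEX (the PBS mice given dexamethasone and air, 10 libraries), HDM called 1463 genes higher (8.49%) and 384 lower (2.23%). Of the 571 genes called lower with smoke, 418 (73.2%) were called higher by HDM there and 4 lower. Of these 571 genes 351 were protein coding, and most of the others were immunoglobulin variable segments. Those segments share reads and could pass the count filter through HDM groups alone, so they raise the 73.2% without being separate genes' evidence. Other genes scarcely detected without HDM could pass the filter in that way too. The 73.2% therefore cannot be weighed against the 8.49% over all genes. The share among the other genes called lower was not tested. Of the genes called higher with smoke, 75 (43.6%) were called lower by HDM there and 7 higher.

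With dexamethasone, smoke called fewer genes in HDM mice, with 0.621% higher and 241 genes (1.4%) lower. Of the 571 genes lower without the drug, 28.2% were called lower with it and 3 genes higher, and of those higher without it, 27 (15.7%) were called higher and 0 lower. The smoke effect itself differed between HDM mice with and without dexamethasone in 1330 genes (7.72%), 727 with a higher and 603 with a lower effect under the drug. In immunoglobulin variable segments the median smoke log2FC was -1.09 with dexamethasone and -1.99 without.

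**Figure D5:**
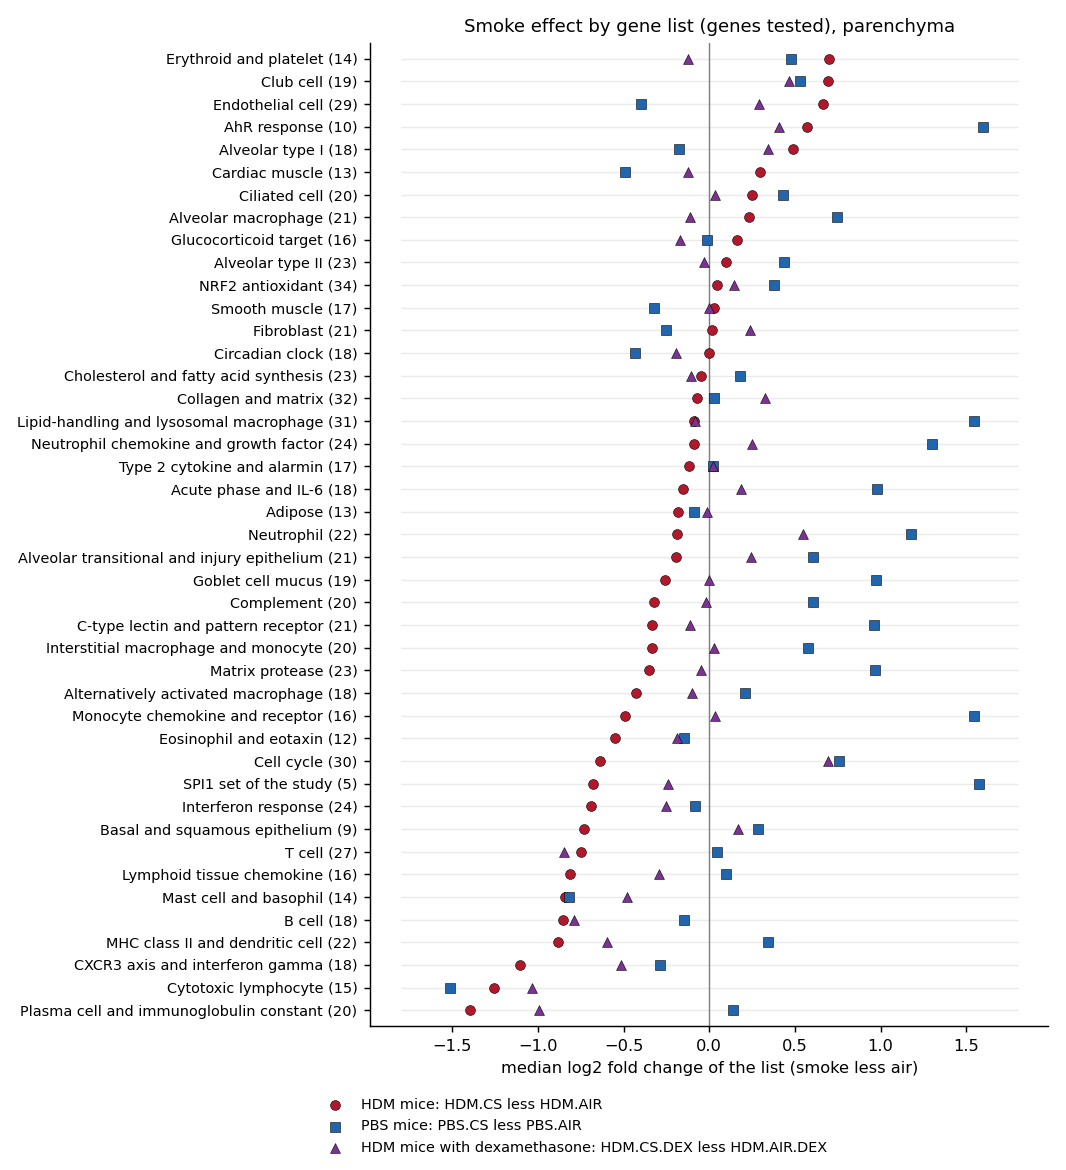
Median log2FC of smoke against air over each gene list in HDM mice, PBS mice and HDM mice given dexamethasone, with 1 point per list and comparison. Lymphocyte, plasma cell and cytotoxic lists lie below 0 in HDM mice, endothelial and alveolar type I lists above 0, and the lipid-handling macrophage list is at 1.55 in PBS mice and -0.09 in HDM mice.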

How the data were processed

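RNA-seq of dissected lung parenchyma was analysed, mainly 20 libraries among the 80 of parenchyma at 11 weeks (8 groups of 10). Reads were 100 bp and single-ended. Per the labels, the authors' tools were STAR 2.5.1b on mm10, RSEM 1.2.31 and kallisto 0.44.0. The authors deposited a table of estimated counts per gene for 43346 identifiers, not scaled for library size. Which tool made it is not stated. In it 20.3% of non-zero values were not whole, and values were rounded first. Identifiers were matched without version to GENCODE M21, where 42462 had a name, although only 23106 versions were equal, so coordinates are those of M21.

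TMM factors (edgeR 4.0.16) went into a limma-voom fit (limma 3.58.1 in R 4.3.3) with 1 mean per group (72 residual degrees of freedom) and moderated tests, adjusted by Benjamini-Hochberg over the 17226 genes that reached the CPM equivalent of 10 counts in at least 9 libraries. CPM values are for comparing samples within a gene. DESeq2 1.42.0 and edgeR's quasi-likelihood test were alternatives, with other filters, scalings, sample sets and each library left out. For principal components, 2 prior counts were added before taking log2 CPM. The code was tested on simulated data. Intervals of differences are 95% confidence intervals.

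The genes named were the 10 largest rises and falls among called genes without overlap, the 10 smallest adjusted p, up to 4 members of each list with the smallest adjusted p, the first 3 markers of each cell type, the 5 smallest p in each direction for the difference between HDM and PBS mice, and Spi1 with its 4 genes. Predicted genes and receptor segments were left out. Further list members (Ighg1, Ighg2b, Igha, Ighm, Igkc, Hmox1, Slc7a11, Prdx1, Srxn1, Gsta1, Gclc, Aldh3a1, Tiparp, Gdf15, Gpnmb, Cxcl1, Cxcl5, Lcn2 and Il17a) and other single values were added after values were seen. The comparison, the lists and their members were chosen with earlier results of these data known. Codes differ between all libraries, and no label says that they pair samples. Sets of 20 consecutive codes, each with 1 library of every group, were tried as a factor. Some genes are not reported here.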

Additional observations from a re-analysis of the deposited data

Results flagged for a closer look

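In 308 checks of a group of 10 for a library far from the rest (Dixon's ratio of the gap to the range, on log2 CPM plus 0.5), 11 passed its 95% limit, and chance passes about 1 in 20. In HDM.CS, X178 was lowest for Nuggc (ratio 0.497), Ighg1 (0.555, at 875 CPM) and Spi1 (0.492), X18 highest for Nkg7 (0.543) and C1qa (0.51), and X38 highest for Nos2 (0.502). In HDM.AIR, X90 was highest for the club cell genes Scgb3a1 (0.607), Scgb3a2 (0.678) and Cckar (0.623), X50 highest for Gdf15 (0.677), and X70, the library with muscle RNA, highest on the second principal component (0.803).

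The smoke effect in HDM mice less that in PBS mice, each tested as an interaction in limma-voom, was -4.84 for Acod1, -4.52 for Dcstamp, -4.15 for Mmp12, -4.10 for Ly6i, -3.48 for Ighg1, -3.39 for Ccl19, -3.19 for Slpi, -3.10 for Timp1 and -2.07 for Slc7a5 on the log2 scale, each called lower in HDM mice and higher in PBS mice. Over all genes 7210 differed between HDM and PBS mice, and 1330 between HDM mice with and without dexamethasone.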

How the results depend on the processing

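Demanding a log2FC beyond 1 in the test itself (limma's treat) left 11 genes higher and 48 lower, and a minimum of 10 CPM in 9 or more libraries left 56 higher and 216 lower. When 1 of the 20 libraries was dropped at a time, called genes lower numbered 518 to 621, genes higher and lower at the adjusted p alone 2104 to 2549 and 2328 to 2799, and genes with a different smoke effect in HDM and PBS mice 6789 to 7442. The count called higher stayed within 1.5 times in all 20 fits. Other tools, scalings, filters and sample sets kept each of these counts within 1.5 times. For the genes named in the text, no alternative reversed a direction. For 13 of them a pass of the adjusted p was lost in at least 1 alternative, and for 7 one was gained. The limit on log2FC was not part of this count. Leaving out X50, X70 and X130 together, chosen after seeing the data, gave 226 higher and 639 lower. The labels give no replicate number that the groups share, and they do not say what a run of library codes stands for. Blocking on sets of 20 consecutive codes, each with 1 library of every group, gave 576 genes lower. There the number of genes whose smoke effect differs between HDM and PBS mice was 7859, and no named gene lost a pass of the adjusted p. At these depths genes such as Il5 and Il13 were too low to test.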

Other observations

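Cyp1a1 levels in the smoke-exposed groups formed a higher and a lower range. In HDM.CS, the libraries X138, X158, X178 and X198 were at 165.4 to 294 CPM and the other 6 at 16.9 to 78.3 CPM. In PBS.CS, X134, X154 and X194 were at 253 to 279 CPM and the other 7, X173 among them, at 19.7 to 76 CPM. Nqo1 was highest in the same 3 PBS.CS libraries, at 41.3 to 52.7 CPM. Clock genes moved with the same libraries. In HDM.CS the 4 libraries high in Cyp1a1 had Nr1d1 at 9.43 to 14.1 CPM and Cry1 at 24.8 to 29.1 CPM, and the other 6 had Nr1d1 at 32.3 to 79.1 CPM and Cry1 at 11.7 to 17.2 CPM. In PBS.CS the 3 high in Cyp1a1 had Nr1d1 at 10.6 to 13.5 CPM, and the other 7 at 36.4 to 75.9 CPM. In PBS.AIR Nr1d1 was at 1.68 to 4.53 CPM in the 6 libraries X6 to X106 and at 40.6 to 59.7 CPM in the 4 libraries X126 to X186. In HDM.AIR Nr1d1 was at 3.45 to 9.73 CPM in X10 to X130 and at 13.8 to 18.4 CPM in X150 to X190. The part of what these values follow in the Cyp1a1 levels, or in the smoke comparison, was not tested.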
